A study of Arabidopsis thaliana with 9 samples.

Results

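The response of Arabidopsis seedlings to nitric oxide scavenging was examined in the 3 arrays titled as treated with cPTIO and the 3 titled as untreated, which are 6 of the 9 arrays of the study. The arrays were chosen by these titles alone. All 22746 probe sets that do not measure array controls were compared, of 22810 on the array. Whole seedlings of the ecotype Columbia-0 were used in every group, with no mutant or transgene. Treatment began after 3 days and lasted 5 days, and the seedlings were 8 days old at collection. For the scavenger group, 2 ml of 1 mM cPTIO were put into the open dishes that held the seedlings, inside a sealed outer dish. The other 3 arrays came from seedlings that shared a sealed outer dish with a solution of 100 uM sodium nitroprusside (SNP), a nitric oxide donor. They entered the fit and are shown beside the cPTIO values. The controls received no agent per the labels, and the abbreviation SDW that the design text uses for them is left unexplained. The protocol does not state how the control dishes were closed, so the effects of cPTIO and of sealing cannot be told apart. The titles speak of biological replicates, but the protocol puts 3 receiver dishes of a treatment into a single sealed dish. If these are the 3 samples, the p-values cover the spread within 1 exposure only.

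Nitric oxide (NO) is a small diffusible gas that acts as a signal in plants. It modifies proteins at cysteine residues, binds haem and iron-sulfur centres, and is known in seedlings for its part in germination, root growth, iron handling and stress responses. Plants make it in part through nitrate reductase and remove it through phytoglobins. cPTIO is a nitronyl nitroxide that oxidises NO to nitrogen dioxide and is used to deplete it. Genes were named only where the annotation table pairs a probe set with exactly 1 gene that the RefSeq annotation also lists, which holds for 13436 of the 22746 probe sets. None of the genes fixed for nitrate uptake and reduction, for NO turnover, for phosphate starvation or for cyanide detoxification had such a probe set, so those pathways are not described here.

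The arrays hold 1 RNA extract each, and values are log2 expression after RMA, in which 1 unit is a doubling. Their medians lay between 4.47 and 4.60. No detection calls were used, so a level near or below these medians is not shown to lie above background, and a change from such a level may be understated. The labelled tissue was checked against a few markers. The leaf gene RCA, for Rubisco activase, lay between 13.02 and 13.19 in all 6 arrays, the leaf regulator YAB3 between 6.66 and 7.01, and the root hair gene EXPA7 between 5.52 and 6.15. The seed protein gene PAP85 lay between 2.70 and 3.46. In whole seedlings, fewer cells of a type and less RNA per cell cannot be told apart.

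The cPTIO arrays varied more among themselves than the untreated ones. The SD of the differences between pairs of arrays was 0.31 for cPTIO replicates 1 and 2, but 0.58 and 0.51 for the pairs that include replicate 3. Among untreated arrays it ran from 0.25 to 0.34. In cPTIO replicate 3, 1437 probe sets lay more than 2-fold from the mean of the other 2 arrays, with 838 above it and 599 below. The same count was 573 for cPTIO replicate 1, 275 for replicate 2 and at most 200 for an untreated array. The mean variance within the group was 0.116 for cPTIO and 0.0440 for untreated. limma's array weights, which are low for arrays that fit the group means poorly, were lowest for cPTIO replicate 3, at 0.296. The bacterial spike-in BioC, added at hybridisation, lay between 6.14 and 6.50 on the untreated arrays and between 7.77 and 8.71 on all 6 treated arrays. Treatment and any difference in array handling that BioC marks thus cannot be told apart in comparisons with untreated seedlings. Results below are given with and without cPTIO replicate 3 where it matters.

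Seedlings given cPTIO had 971 probe sets with lower and 527 with higher values than untreated seedlings. These 1498 calls are 6.59% of the 22746 tested, with 4.27% called lower and 2.32% called higher. A call is an adjusted p under 0.05 in limma's moderated test, fitted to all 9 arrays. Among the calls, 322 fell and 147 rose by at least 2-fold, and 12 fell and 11 rose by at least 4-fold. In every call, the 3 cPTIO arrays lay on 1 side of the 3 untreated arrays. Such a separation was also seen in 26.4% of all probe sets, so that it adds little by itself. The call rate depended on level, with 0.123% higher and 0.211% lower calls among the 5687 dimmest probe sets and 4.98% higher and 5.87% lower calls among the 5687 brightest. Genes called lower had a median span of 2173.5 bp and genes called higher 2285.5 bp, against 2122 bp for all named nuclear genes on the RefSeq TAIR10.1 assembly. The numbers rest on few arrays. Leaving out untreated replicate 2 left 122 calls, untreated replicate 3 left 630, untreated replicate 1 left 824 and cPTIO replicate 1 left 420. Without cPTIO replicate 3 there were 2114 calls, 1224 of them among the 1498. Leaving out SNP replicate 2 gave 782 and SNP replicate 1 gave 847. A fit of the 6 arrays alone called 280. The balance of directions also moved with the scaling: with every array centred on its median, 753 probe sets were higher and 772 lower, so lower calls made up 50.6% in place of 64.8%.

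**Figure D1:**
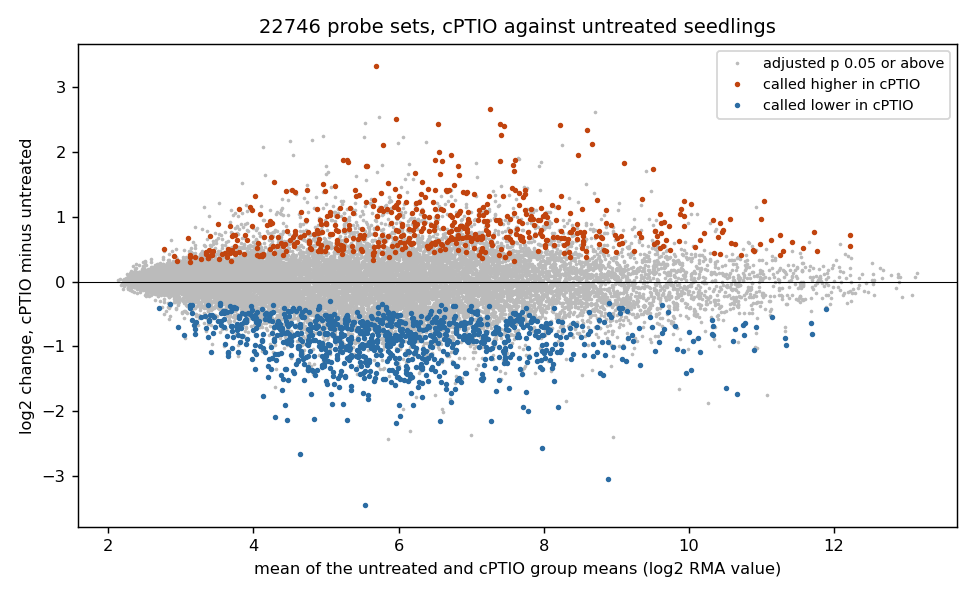
Each point is a probe set, with the mean of the untreated and cPTIO group means on the horizontal axis (log2 RMA value) and the log2 change, cPTIO minus untreated, on the vertical axis. Coloured points are the 527 probe sets called higher and the 971 called lower, and the changes reach 3.33 upwards and -3.44 downwards.

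The largest decreases among named genes touched a storage-protein-like gene, the chloroplast ribosome, an iron-signalling peptide and nucleolar proteins. The strongest was in AT4G36700, which encodes a cupin, a family that includes seed storage proteins. Its untreated values were 6.71, 7.83 and 7.24 and its cPTIO values 4.68, 3.79 and 2.98, a change of -3.44 ± 0.63 (SE; adjusted p = 0.0219). The cPTIO arrays spread over more than 1 unit, yet all lay below all untreated arrays. The chloroplast gene rpl16, for a protein of the large plastid ribosomal subunit, read 10.31, 10.43 and 10.49 untreated and 6.91, 7.07 and 8.13 with cPTIO. It was thus 8.21-fold lower (log2 -3.04 ± 0.28, adjusted p = 0.00425), with cPTIO replicate 3 the least reduced. AT1G47400, which encodes a short peptide of the IRON MAN family that promotes the response to iron deficiency, was at 8.74, 9.63 and 9.43 untreated and at 6.99, 6.57 and 6.54 with cPTIO. Its change was -2.57 ± 0.33 (adjusted p = 0.00892), and its 3 cPTIO values lay close together.

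Further decreases were smaller. The cytochrome P450 gene CYP71B26 went from 6.74, 7.42 and 7.001 to 4.93, 5.40 and 4.29, a change of -2.18 ± 0.32 (adjusted p = 0.0123). AT2G01870 read 6.52, 6.61 and 5.93 untreated and 4.23, 4.22 and 4.21 with cPTIO, which makes its cPTIO arrays the most alike of the leading genes. These cPTIO values lie below the array medians, so they are not shown to exceed background. AT3G52040 fell 3.98-fold, from 8.72, 8.92 and 8.69 to 6.59, 6.98 and 6.78 (adjusted p = 0.00156). AT2G16860, for a protein of the GCIP-interacting family, changed by -1.90, and RBL (REBELOTE), a NOC2-domain protein that takes part in ending floral stem cell activity, by -1.81. AT1G53460, AT1G02330 and AT1G70810, the last for a protein with a C2 domain, changed by -1.75, -1.72 and -1.69. The remaining genes of this group, AT1G79150, AT5G38720, rpl20 and AT1G70200, belong to the ribosomal and chloroplast groups described below. All 15 leading decreases were also called without cPTIO replicate 3, 13 of 15 in the fit of the 6 arrays alone, and 7 of 15 without untreated replicate 2. Of all 1498 calls, 1224 were kept without cPTIO replicate 3 and 275 in the fit of the 6 arrays. The 15 genes were chosen for the size of their change in these same arrays, so their counts are a description.

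**Figure D2:**
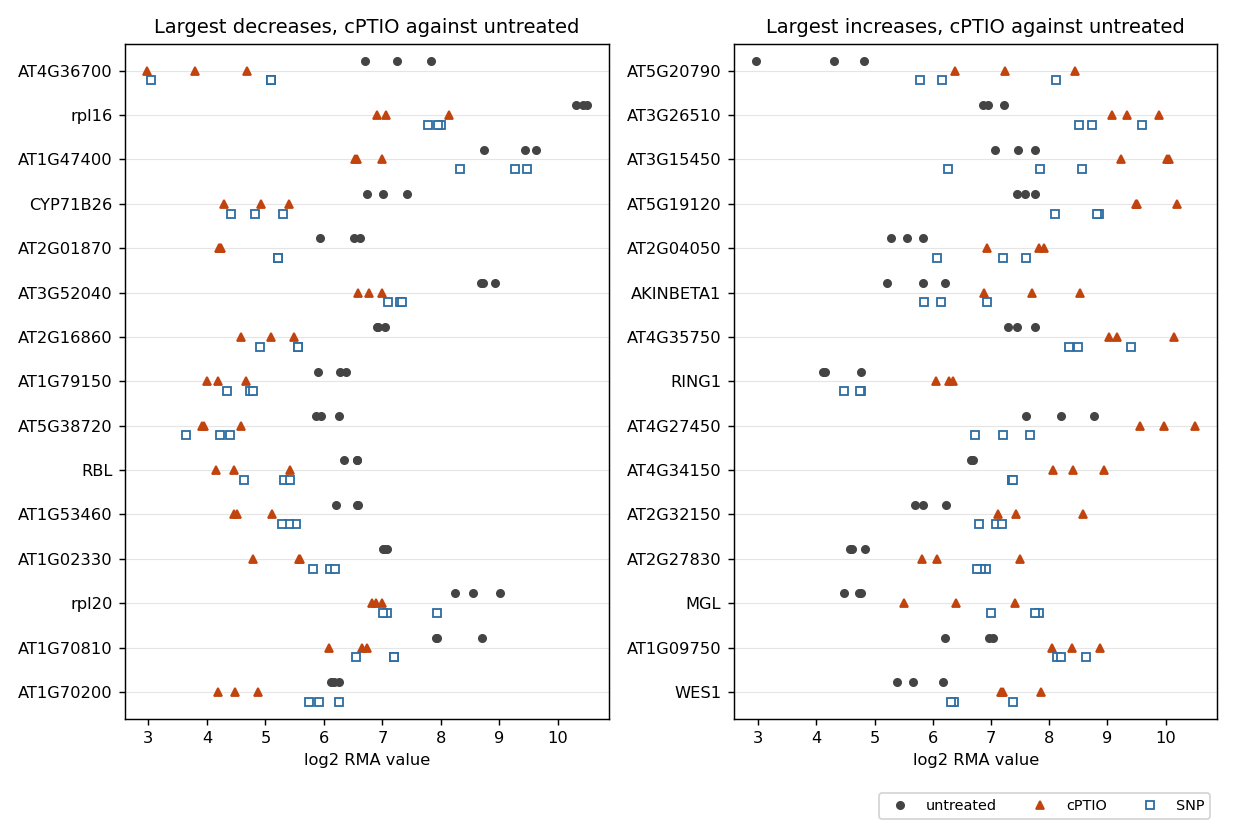
Values of the 15 named genes with the largest called decrease (left) and increase (right) in cPTIO against untreated seedlings, on the log2 RMA scale. Each symbol is 1 array, with 3 untreated, 3 cPTIO and 3 SNP arrays a gene, and in all 30 genes the cPTIO and untreated arrays do not overlap, as the choice of genes requires.

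Genes for ribosome assembly were lower in cPTIO seedlings. Eukaryotic ribosomes are built in the nucleolus by a large set of conserved factors that process ribosomal RNA and add ribosomal proteins. Of 50 probe sets for 49 such factors, 19 were called lower and 0 higher, which is 38.0% called against 4.27% called lower among all probe sets. In all, 46 had a change below 0, as did 45.6% of all probe sets. The median change was -0.77, against 0.02 over all probe sets. The list was drawn up after the values had been seen, so its count is a description and supports nothing by itself. Its count was 21 and its median -0.52 without cPTIO replicate 3, and its count was 2 without untreated replicate 2. In cPTIO replicate 3 the factors lay lower than in the other 2 arrays, by a median of 0.61 on the log2 scale: the list's median level was 5.74, 5.85 and 4.86 in cPTIO replicates 1, 2 and 3, and 6.33, 6.27 and 6.40 in the untreated arrays.

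AT1G79150, for a protein of the NOC3 type that moves pre-ribosomes out of the nucleolus, read 5.89, 6.28 and 6.37 untreated and 4.19, 4.67 and 4.00 with cPTIO (log2 change -1.89, adjusted p = 0.00609), and its second probe set was called lower too. AT5G38720, for a protein counted among the rRNA processing factors, changed by -1.88 (adjusted p = 0.00892). AT3G57000, the homologue of the 18S rRNA methyltransferase EMG1, read 8.23, 8.17 and 8.03 and then 6.67, 7.11 and 6.10. It was 2.86-fold lower, with replicate 3 the lowest array. AT3G10530, related to the yeast small-subunit factor UTP7, changed by -1.50 (adjusted p = 0.0476), and its cPTIO values of 5.49, 5.55 and 4.14 show how far replicate 3 stands apart. AT2G44860, related to the large-subunit factor RLP24, read 9.67, 9.46 and 9.32 untreated and 7.74, 8.42 and 8.04 with cPTIO, a 2.67-fold decrease (adjusted p = 0.00827). Here replicate 3 lay between the other 2 arrays. The remaining called probe sets changed by -1.46 to -0.55, and include AT2G40430 (SMALL ORGAN 4), the BRIX-domain genes AT1G52930 and AT3G23620, AT1G06720 (BMS1), the box C/D core protein gene AT3G12860 (NOP56) and AT2G18220 (NOC2). In SNP seedlings, which are set against the same 3 untreated arrays, the list's median change was -0.75, and none of the 19 factors differed between cPTIO and SNP at an adjusted p under 0.05.

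Other genes of RNA synthesis and handling were called lower too. Of 6 probe sets with an NRPB symbol, for subunits of RNA polymerase II and subunits it shares with other polymerases, 4 were called lower and 0 higher, with a median of -0.90; over all probe sets 4.27% were called lower. NRPB6A read 8.60, 8.90 and 8.57 untreated and 7.08, 7.50 and 7.87 with cPTIO, a change of -1.21 ± 0.19 (adjusted p = 0.0141). NRPB7 changed by -1.18 (adjusted p = 0.0066), NRPB9B by -0.94 and NRPB12 by -0.85. NRPB6B, at -0.60 with an adjusted p of 0.0601, and the dim NRPB9A, at -0.03, were not called. When cPTIO replicate 3 was left out, 5 of the 6 were called. Of 6 probe sets for LSM proteins, which form rings on RNA in splicing and decay, LSM6A (-0.91, adjusted p = 0.0177) and LSM3A (-0.75, adjusted p = 0.0448) were called lower. LSM3A was not called without cPTIO replicate 3 (adjusted p = 0.0714). These groups were formed mechanically from gene symbols: 43 symbol stems had at least 5 probe sets, 4 of them held 3 or more calls, and 21 held none.

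Transcripts of the chloroplast genome were lower as a group in cPTIO seedlings. The plastid genome encodes part of the photosynthetic complexes together with ribosomal proteins and the core of a bacterial-type RNA polymerase. Of its 69 probe sets, 1 a gene, 19 were called lower and 0 higher, which is 27.5% called against 4.27% called lower among all probe sets. In all, 59 had a change below 0 and the median was -0.39. Without cPTIO replicate 3, 24 were called lower and the median was -0.60; without untreated replicate 2, 3 were. Replicate 3 was less reduced here: its values lay above the lowest untreated array in 35 of 69 genes, against 18 for replicate 1 and 15 for replicate 2.

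Among the called genes, the ribosomal protein genes rpl16, rpl20 and rpl14 had the largest decreases, although the median over the 7 genes for the large subunit was -0.36. Next to rpl16, rpl20 read 8.24, 8.55 and 9.003 untreated and 6.90, 6.82 and 6.99 with cPTIO (log2 change -1.70, adjusted p = 0.0146). For rpl14 the values were 8.29, 8.18 and 8.56 and 6.22, 6.64 and 7.27, a 3.11-fold decrease (adjusted p = 0.0144). In both genes the 2 groups stood more than 0.9 apart. rps16 (-1.27), rps15 (-1.17) and rps4 (-0.87) were also called, so that 3 of 7 genes for the large and 3 of 8 for the small subunit fell, while rpl33 stood at 0.01 and rpl36 at -0.17. Among genes for the RNA polymerase, rpoC1 fell by 1.01 (adjusted p = 0.0309), and rpoA, rpoB and rpoC2 stood at -0.35, -0.13 and -0.72 without a call.

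For the photosynthetic complexes, the share to set beside each count is the 4.27% called lower among all probe sets. The chloroplast NDH complex, which carries electrons around photosystem I, had 3 of 10 genes called lower and all 10 below 0, led by ndhK with 6.76, 7.08 and 6.92 untreated and 5.12, 5.24 and 5.997 with cPTIO. ndhK changed by -1.47 (adjusted p = 0.0212), ndhE by -1.27 and ndhJ by -1.24. rbcL, for the large subunit of the carbon-fixing enzyme Rubisco, read 9.03, 9.66 and 9.90 and then 8.15, 8.54 and 7.59. It was 2.7-fold lower (adjusted p = 0.0319), with replicate 3 the lowest array, unlike in rpl16, rpl20, rpl14 and ndhK. ycf3, an assembly factor of photosystem I, changed by -1.49, and petA and petL of the cytochrome b6f complex by -0.82 and -0.94. Photosystem II had 1 call in 15 genes, a count near that share, psbZ (-1.07, adjusted p = 0.00609), and a class median of -0.01. Photosystem I had 1 call in 5, psaB (-0.64), and the ATP synthase 1 in 6, atpF (-0.96), beside atpA at 1.07 with an adjusted p of 0.2. Outside these complexes, accD, for a subunit of the acetyl-CoA carboxylase of fatty acid synthesis, read 7.11, 7.76 and 7.95 untreated and 4.98, 5.36 and 7.08 with cPTIO. Its change of -1.80 was not called (adjusted p = 0.0711, and 0.00582 without cPTIO replicate 3), and cemA (-0.93) and matK (-0.67), for a chloroplast envelope protein and a splicing factor, were called lower. The difference between these classes was not tested. In SNP seedlings the median over the 69 genes was -0.16, and 4 of the 19 called genes were also called against the same untreated arrays. The SNP change was -2.50 for rpl16, -1.26 for rpl20 and -0.92 for rpl14, but -0.30 for rbcL and -0.24 for ycf3. Of the 19 called genes, rps16 differed between cPTIO and SNP (-1.04 on the log2 scale, adjusted p = 0.0341), as did ycf3 (-1.25, adjusted p = 0.0498), and neither did in a fit with the replicate number as a block (adjusted p = 0.127 and 0.0946).

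**Figure D3:**
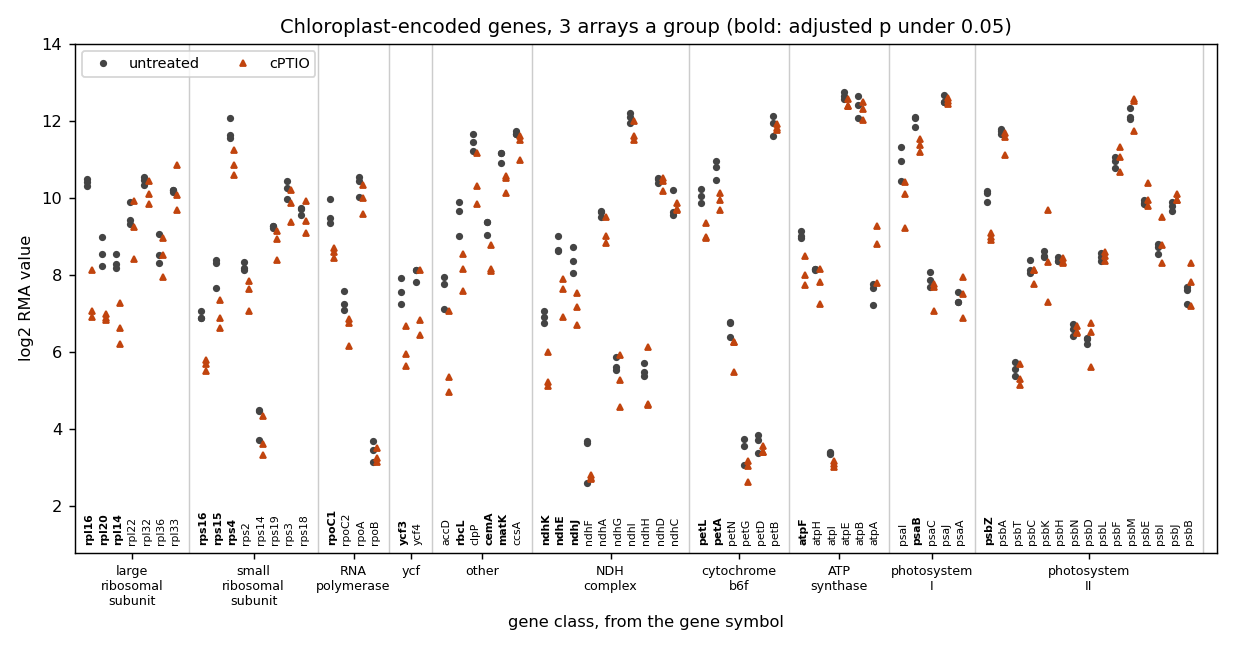
Log2 RMA values of the 69 chloroplast-encoded genes on the 3 untreated and 3 cPTIO arrays, 1 symbol an array, grouped by the class that the gene symbol gives. Names in bold mark the 19 genes called lower. They include 3 of 10 NDH genes and 1 of 15 photosystem II genes, where 4.27% of all probe sets were called lower.

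A few nuclear genes that act on chloroplast transcripts or on the NDH complex fell, and others of this kind did not. Of 5 probe sets with a CRR symbol, for proteins first found through defects in the NDH complex, 3 were called lower and 0 higher, against 4.27% called lower among all probe sets. CRR21, which is needed to edit the ndhD transcript, read 5.55, 5.91 and 5.71 untreated and 4.298, 4.77 and 4.12 with cPTIO (change -1.33, adjusted p = 0.0101). The NDH assembly factors CRR41 and CRR42 changed by -1.24 and -1.07 (adjusted p = 0.0146 and 0.0317), while the editing factors CRR22 and CRR28 stood at 0.12 and -0.06. Of 8 probe sets with an OTP symbol, for organelle transcript processing, 0 were called lower and OTP70 was called higher, at 0.60 (adjusted p = 0.0262), and their median was 0.13. AT1G70200, for an RNA-binding protein of the chloroplast, read 6.11, 6.26 and 6.18 and then 4.18, 4.87 and 4.49. It was 3.18-fold lower (adjusted p = 0.00609), and the SNP arrays, at 6.25, 5.92 and 5.74, lay near the untreated ones.

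The nuclear genes for the photosynthetic apparatus that could be named were few. Of the 6 probe sets for nuclear photosystem and Calvin cycle genes and the 3 for light-harvesting proteins, 0 were called, which in lists this short is close to the 6.59% called of all probe sets, and their medians were 0.06 and 0.07. RCA changed by 0.07 ± 0.08, the photosystem I subunit gene PSAE-1 by 0.08, and the antenna genes LHCB4.1 and LHCB4.2 by 0.18 and 0.07, with adjusted p-values from 0.332 to 0.853. PORB, for an enzyme that makes chlorophyllide in the light, was the 1 call among 3 genes of chlorophyll synthesis: it rose from 7.73, 7.25 and 7.61 to 8.67, 8.51 and 8.94, 2.27-fold (adjusted p = 0.0185). The SNP arrays, at 9.47, 9.02 and 9.73, were higher still. GSA1 and CHLM, of the same pathway, stood at 0.17 and 0.22.

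Mitochondrial transcripts were called at a rate near that of all probe sets. Of 23 probe sets for 16 mitochondrial genes, 2 were called higher and 0 lower, which is 8.70% called against 6.59% of all probe sets. In all, 19 were above 0 and 4 below, where 45.6% of all probe sets were below 0. The median was 0.31, against 0.02 over all probe sets. The calls were nad2 at 0.89 and nad7 at 0.68, both for subunits of respiratory complex I. nad7 read 3.85, 3.79 and 4.07 untreated and 4.49, 4.42 and 4.84 with cPTIO (adjusted p = 0.023). These levels lie below the array medians in the untreated seedlings, so they are not shown to exceed background.

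The largest increases included genes known to rise when sugar or light is short. AT5G20790, which is on neither starvation list below, led with 4.81, 4.296 and 2.96 untreated and 6.38, 7.24 and 8.44 with cPTIO. Its change was 3.33 ± 0.75 (adjusted p = 0.04), and its SNP change against untreated was 2.66 (adjusted p = 0.0794). Its untreated level was near background and its cPTIO values spread over 2 units, and it was not called without cPTIO replicate 3 (adjusted p = 0.0572). AT3G26510, for a protein with a PB1 domain, rose 5.36-fold, from 7.23, 6.95 and 6.87 to 9.89, 9.08 and 9.34 (adjusted p = 0.00827). AT5G19120, for an aspartic protease of the pepsin type, rose 4.38-fold, from 7.59, 7.45 and 7.76 to 10.20, 9.50 and 9.50 (adjusted p = 0.0066). These last 2 genes and RING1 and AT4G34150 were the 4 of the 15 leading increases that stayed called whichever of the 9 arrays was left out. Of all 527 probe sets called higher, 24 did so.

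AKINBETA1, a regulatory subunit of SnRK1, the kinase that plants activate when energy is short, read 5.21, 5.83 and 6.21 untreated and 7.71, 6.88 and 8.53 with cPTIO. Its change was 1.96 ± 0.45 (adjusted p = 0.0414, and 0.0523 without cPTIO replicate 3, its highest array). RING1, for a ubiquitin ligase linked to programmed cell death, rose from 4.77, 4.14 and 4.12 to 6.05, 6.35 and 6.28 (change 1.88, adjusted p = 0.00486), with all cPTIO arrays more than 1 unit above the untreated ones. AT4G34150, for a protein with a C2 domain, rose 3.47-fold (adjusted p = 0.0052). MGL, for methionine gamma-lyase, which breaks methionine down, went from 4.73, 4.48 and 4.76 to 6.40, 5.50 and 7.42 (change 1.78, adjusted p = 0.0478), and its SNP values of 7.82, 7.75 and 6.99 were mostly higher. WES1 (GH3.5), which couples auxin to amino acids, rose by 1.67, the efflux carrier gene AT2G04050 by 2.00, the SEC14-domain gene AT4G35750 by 1.95, the aspartic protease gene AT1G09750 by 1.70 and AT2G27830 by 1.79. Without cPTIO replicate 3, 12 of the 15 leading increases were called, in the fit of the 6 arrays alone 6, and without untreated replicate 2 they numbered 4. These genes too were chosen for the size of their change in the same arrays.

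Starvation-related genes were described by a pair of lists. The first, on sugar starvation and darkness, had 6 probe sets. Of these, 1 was called higher (AKINBETA1) and 0 lower, against 2.32% called higher among all probe sets, and the median change was 0.83. The other 5, mostly for breakdown of branched-chain amino acids, were not called, and in each of them replicate 3 was the highest cPTIO array. IVD, for isovaleryl-CoA dehydrogenase, read 6.11, 5.98 and 8.97 with cPTIO against 6.10, 5.93 and 5.98 untreated, and MCCA, for a subunit of methylcrotonyl-CoA carboxylase, 6.84, 6.61 and 8.76 against 6.28, 5.79 and 6.37. Their adjusted p was 0.411 and 0.169. MCCB and ETFQO stood at 0.65 and 0.37, and AT4G33150 (LKR), of lysine breakdown, at -0.54. Over the list replicate 3 lay above the other cPTIO arrays by a median of 1.41. Without replicate 3 the list's median was 0.21, AT4G33150 was called lower (adjusted p = 0.017), and no member was called higher.

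The second list, of 9 further genes known to rise in darkness or starvation, was chosen after the values had been seen and supports nothing by itself. Of its 10 probe sets, 6 were called higher and 0 lower (median 1.62), against 2.32% called higher among all probe sets. Without cPTIO replicate 3, 5 were called, 4 of them among the 6, and without cPTIO replicate 1 or without untreated replicate 2 there was 1. AT3G15450, of a family with YGL and LRDR motifs, rose 5.04-fold, from 7.07, 7.47 and 7.76 to 10.02, 9.23 and 10.05 (adjusted p = 0.04, and 0.0589 without cPTIO replicate 3). AT4G27450, of the same family, read 7.60, 8.20 and 8.76 untreated and 10.51, 9.56 and 9.97 with cPTIO (change 1.83, adjusted p = 0.0269). The SNP arrays of AT4G27450, at 7.20, 6.73 and 7.67, lay mostly below the untreated ones. AT2G32150, for a hydrolase of the HAD type, changed by 1.79, AT2G20670 by 1.31 and the ubiquitin ligase gene ATL8 by 0.71. AT3G15630 stood at 1.61 (adjusted p = 0.0923) and STR18 at -0.36, without a call.

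**Figure D4:**
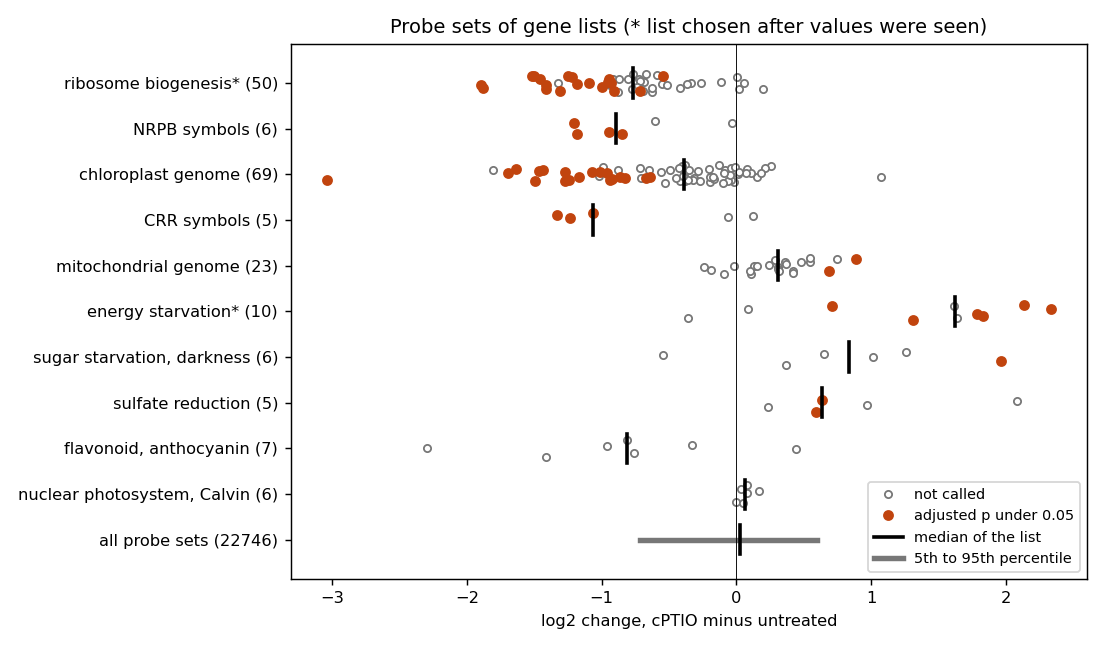
Log2 change, cPTIO minus untreated, of each probe set in 10 gene lists, with the number of probe sets in brackets. Filled points are called, black bars are list medians, and the grey bar spans the middle of all 22746 probe sets from the 5th to the 95th percentile; the ribosome biogenesis median is -0.77 and that of the added starvation list 1.62.

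Sulfur, oxygen and hormone genes gave a few further increases. Over all probe sets 2.32% were called higher, the share to set beside each count in this paragraph. Of 5 probe sets for sulfate reduction and sulfur limitation, 2 were called higher, and 0 were called in the fit of the 6 arrays alone. SIR, for sulfite reductase, rose from 9.96, 9.70 and 9.83 to 10.51, 10.35 and 10.53 (1.55-fold, adjusted p = 0.0119), and APS3, for an ATP sulfurylase, by 0.59 (adjusted p = 0.0458, and 0.0702 without cPTIO replicate 3). BGLU28, a thioglucosidase-like gene of sulfur starvation, showed 3.31, 3.90 and 8.32 with cPTIO and 3.38, 3.15 and 2.76 untreated. Its mean change of 2.08 came mainly from replicate 3 and was not called (adjusted p = 0.312). PDC2, for pyruvate decarboxylase, the entry to ethanol fermentation, rose from 6.69, 6.32 and 6.34 to 7.39, 7.38 and 7.16 (1.82-fold, adjusted p = 0.0223). The other 2 low-oxygen genes, LDH1 (AT4G17260, lactate dehydrogenase) and HRA1 (AT3G10040), stood at 0.71 and 0.47, without a call. Of 6 auxin genes only WES1 was called, while GH3.3 and IAA29 stood at 0.56 and -0.80.

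Among 47 probe sets for UGT glycosyltransferases, which attach sugars to small molecules, 3 were called higher and 1 lower, 8.51% against 6.59% of all probe sets. UGT87A2 rose by 1.42, with cPTIO values of 7.99, 7.71 and 9.25, UGT73C1 by 1.32 and UGT84A3 by 1.13, and UGT85A2 fell by 0.92 and was not called without cPTIO replicate 3 (adjusted p = 0.0647). Of 26 cytochrome P450 probe sets, 3 were called lower and 0 higher, 11.5% against 4.27% called lower over all probe sets, all in the CYP71B subfamily. CYP71B36 read 5.19, 5.59 and 5.23 untreated and 3.37, 3.503 and 2.88 with cPTIO (change -2.09, adjusted p = 0.00435), and CYP71B34 changed by -1.14. The loci of these 3 genes, AT3G26290, AT3G26300 and AT3G26320, lie close together on chromosome 3, and their probes may share sequence, which was not examined. Of 9 xyloglucan-modifying XTH enzymes of the cell wall, XTH26 (-1.90, adjusted p = 0.0265) and XTH33 (-1.50, adjusted p = 0.0407, and 0.0519 without cPTIO replicate 3) were called lower. The root hair genes EXPA18 and EXPA7, both for wall-loosening expansins, stood at -0.79 (adjusted p = 0.0414) and -0.49 (adjusted p = 0.143); EXPA18 was not called without cPTIO replicate 3 (adjusted p = 0.0564). Of 8 aldehyde dehydrogenase probe sets, ALDH3F1 (-0.85) and ALDH2C4 (-0.75) were called lower, and ALDH3F1 was not without cPTIO replicate 3 (adjusted p = 0.0539).

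Among the iron-response genes only AT1G47400 was called. The regulator BHLH101 read 3.83, 3.21 and 3.42 with cPTIO against 5.34, 5.38 and 4.60 untreated (change -1.62, adjusted p = 0.188). PYE, a repressor of iron storage and uptake genes, stood at -0.51, and AT3G13610 (F6H1), which acts in the synthesis of the coumarin scopoletin, at -1.17 with overlapping arrays. All 3 genes of the fixed list were below 0, with a median of -1.17, and 0 were called. Of 4 further probe sets for iron deficiency genes, chosen after the values had been seen, AT1G47400 was called lower, AT5G05250 stood at -0.71 and AT3G07720 at 0.40. AT1G47400 was still called without cPTIO replicate 3 (adjusted p = 0.0113).

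In the remaining lists 0 genes were called, and several spanned wide ranges. In the flavonoid and anthocyanin list, 6 of 7 probe sets were below 0 with a median of -0.81; DFR, for the enzyme that leads to anthocyanins, read 5.19, 5.37 and 4.47 with cPTIO against 5.94, 8.25 and 7.73 untreated (change -2.30, adjusted p = 0.0715). CHIL and UGT78D1, the brightest members, stood at -1.41 and -0.76. Respiratory genes split, with NDB2, an external NADH dehydrogenase, at 0.40 (adjusted p = 0.0715) and AT2G21640 (UPOX), a mitochondrial stress marker, at -1.35 (adjusted p = 0.079). Of the scavengers of reactive oxygen, 5 of 6 were above 0 (median 0.28), with 2CPA (AT3G11630) at 0.14 and GR1 at -0.29. The EARLI1-type lipid transfer gene AZI3 (AT4G12490) read 9.86, 8.53 and 4.88 with cPTIO against 8.83, 10.23 and 11.41, so neither group was uniform, and AT2G45180 stood at 0.12. Heat shock genes AT5G51440 and Fes1A stood at -0.73 and 0.27.

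Defence and hormone lists gave small values. WRKY53 and GRX480 of the salicylic acid list stood at -0.38 and 0.24, OPCL1 and PDF1.2 of the jasmonate list at 0.31 and -0.22, and EIN3 and RTE1 of ethylene signalling at 0.19 and 0.22. The cytokinin response regulators RR16 and ARR15 stood at 0.05 and -0.10, and the gibberellin receptor gene GID1A at 0.07. None of these was called. The cold and drought genes COR47 and LTI30 stood at -0.08 and -0.56, although LTI30 alone ranged from 4.87 to 9.19 over the cPTIO arrays. WRKY6 and WRKY22, rapid stress factors, stood at 0.69 and -0.26. GSTU25, a glutathione transferase, stood at -1.14 (adjusted p = 0.0895) and AER at 0.56. GSTU20 and BCAT4 of glucosinolate synthesis, AIM1 and PPDK of lipid and sugar conversion, HCT and CCR2 of lignin synthesis, and PRL and AUR1 of cell division stood between -0.27 and 0.78, and 0 were called. Without cPTIO replicate 3, BCAT4 stood at 0.55 (adjusted p = 0.0474) and was called higher, while WRKY53 was called lower (adjusted p = 0.015). In the same fit SAPX of the scavenger list and STZ of the stress factor list were called higher (adjusted p = 0.0101 and 0.0238), and GSTU22 of the glutathione transferase list was called lower (adjusted p = 0.0481). The stomatal lineage markers FMA and SPCH stood at -0.29 and -0.21.

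The donor arrays allow a test of which responses differ between scavenger and donor. Between cPTIO and SNP, 742 probe sets, 3.26%, were called, 197 of them among the 1498 called against untreated. Among the 30 leading genes, 6 differed. In AT1G47400, cPTIO minus SNP was -2.32 on the log2 scale (adjusted p = 0.0104), and its SNP values, 9.47, 9.27 and 8.33, overlapped the untreated ones. AT2G01870 differed by -0.99 (adjusted p = 0.0181) and AT1G70200 by -1.46 (adjusted p = 0.00745). AT2G01870 read 5.21 on each SNP array (SD 0), so a very small spread enters its p-value. In the other direction, AT4G27450 was higher by 2.82 (adjusted p = 0.00751), RING1 by 1.56 (adjusted p = 0.0057) and AT4G34150 by 1.101 (adjusted p = 0.0217). Same-numbered cPTIO and SNP arrays deviated together from their group means, with correlations of 0.257, 0.305 and 0.417, so they were also compared with the replicate number as a block. That fit called 282 probe sets, against 267 for the same 6 arrays without the block. In it AT1G70200 and AT4G34150 were no longer called (adjusted p = 0.0688 and 0.0796), AKINBETA1 was (adjusted p = 0.0424), and the adjusted p of the other 4 genes ran from 0.0287 to 0.0354.

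For most of the leading genes no difference between the agents was called, which does not show that they act alike. CYP71B26, for example, read 4.82, 5.29 and 4.40 with SNP against 4.93, 5.40 and 4.29 with cPTIO, a difference of 0.03 (adjusted p = 0.973). Both agents are set against the same 3 untreated arrays, so an untreated array that stands apart moves both changes together. The median SNP change was 1.096 over the 15 leading increases and -1.37 over the 15 leading decreases. CRR21, called lower with cPTIO, differed from SNP by -1.26 (adjusted p = 0.00996, and 0.0556 with the block), its SNP values of 5.83, 5.61 and 5.53 lying close to the untreated ones. SIR was higher than in SNP by 0.50 (adjusted p = 0.0265, and 0.0973 with the block). DFR, not called against untreated, differed from SNP by -4.00 on the log2 scale (adjusted p = 0.0173, and 0.0224 with the block), the SNP values being 9.45, 9.62 and 7.95. Other genes not called against untreated also differed from SNP in the fit of all 9 arrays. COR47 differed by 2.31 (adjusted p = 0.0184) and NDB2 by 0.54 (adjusted p = 0.0394). GSTU25 differed by -1.95 (adjusted p = 0.025) and AIM1 by -0.57 (adjusted p = 0.0204).

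The separate position of cPTIO replicate 3 was carried by genes of several kinds, chosen here for that deviation and so given with no test. IVD, at 8.97 in this array, lay between 5.93 and 6.11 in all 8 others. AT4G28085 read 4.204, 4.43 and 7.23 over the 3 cPTIO arrays, AT1G15010 4.06, 4.07 and 6.95, and UGT73B5, for a glycosyltransferase induced by stress, 4.58, 4.67 and 6.96. The deviation of the 10 leading genes above the other cPTIO arrays ran from 2.92 down to 2.33. They include AT1G26380, a gene of the berberine bridge enzyme family, the calmodulin-like gene AT3G01830 and the amino acid transporter gene AT3G56200.

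In the other direction, SAG29 (SWEET15), a sugar transporter that rises with senescence, read 7.22, 7.67 and 3.85 with cPTIO and 7.25, 7.67 and 7.36 untreated. The papain-type protease gene AT2G27420 read 6.48, 6.27 and 3.41 with cPTIO, and the flavonoid gene CHIL 7.95, 8.22 and 5.35. GI, a clock component that peaks late in the day, was at 5.61, 5.62 and 3.47. SAG29, AT2G27420 and GI were low in SNP replicate 3 as well, at 4.16, 2.92 and 3.14 against at least 8.14, 6.95 and 5.23 in the other SNP arrays. Over the 599 probe sets more than 2-fold low in cPTIO replicate 3, the median deviation of SNP replicate 3 from SNP replicates 1 and 2 was -0.45. Of these 599, 93 lay more than 2-fold low there too, as did 214 of all 22746 probe sets. Over the 838 that lay more than 2-fold high, the median deviation was 0.26. Of these 838, 65 lay more than 2-fold high in SNP replicate 3, as did 129 of all 22746. The remaining low genes were AT5G62210, AT5G45650 (a subtilase), AT5G39850 (a ribosomal protein of the small subunit), BCAT4 of methionine-derived glucosinolates, AT1G06000 (a flavonol rhamnosyltransferase) and AT3G15650. Of the 1437 probe sets that deviated more than 2-fold in cPTIO replicate 3, 22 of the 838 high ones and 6 of the 599 low ones were called against untreated. Of all probe sets, 6.59% were called. The 1437 were picked for a wide spread within cPTIO, which enters the same fit and makes a call less likely. Their counts therefore do not show what part replicate 3 had in the calls.

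**Figure D5:**
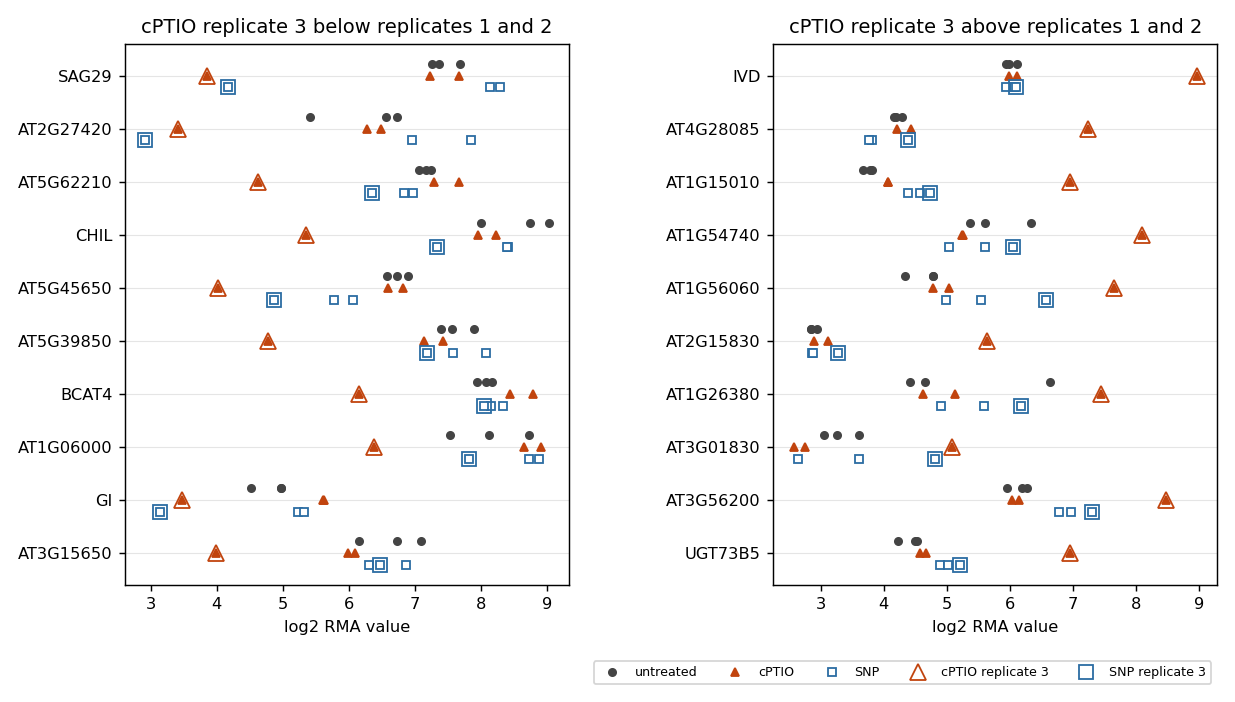
Log2 RMA values of the 20 named genes that deviate most in cPTIO replicate 3 from replicates 1 and 2, where those differ by less than 0.5; 10 lie below (left) and 10 above (right). Large outlines mark cPTIO replicate 3 and SNP replicate 3, and for SAG29, AT2G27420 and GI both outlined arrays lie below all others.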

How the data were processed

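The labelled cRNA of each seedling sample was hybridised to 1 Affymetrix array. The values that the authors deposited are on a log2 scale, with a row for every probe set and a column for every array. RMA and limma are named in the submitters' processing notes, without versions. RMA equalises the distributions of the arrays, which would take out most of a shift common to all transcripts. Scanner intensities were not analysed here, and precision is limited by the small number of arrays.

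Groups and replicate numbers came from the sample titles. The log2 values of all 9 arrays were fitted with limma 3.58.1 (R 4.3.3) with group as the only term, over the 22746 probe sets without the AFFX prefix. Contrasts were cPTIO minus untreated, cPTIO minus SNP and SNP minus untreated. The test was two-sided, and an adjusted p (Benjamini-Hochberg over all probe sets) under 0.05 is a call. Standard errors are those of the moderated fit. The fit was tested on simulated data with independent arrays and the same spread in every group. That test therefore does not cover the wider spread of the cPTIO arrays. Control transcripts were compared with exact permutation tests. Alternatives were a fit of 2 groups, array weights, centring on array medians, a filter on dim probe sets, an intensity trend, the replicate number as a block and leaving out each array.

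Probe sets were named from GEO's platform annotation through Entrez IDs matched to RefSeq (TAIR10.1). It lists 14016 of the 22746, 503 of them with several genes and 13513 with 1, of which 13436 matched; 8730 are unnamed here. Of 669 genes on the fixed lists, 113 had a probe set. Lists that need gene descriptions (ribosomal proteins, histones, peroxidases, proteasome, tubulins) could not be built. Root (other than root hair) and seed marker lists had no probe set. The 77 named probe sets without a RefSeq match hold the mitochondrial genes, named by symbol alone. The arrays compared and the lists were chosen with earlier results of these data known. The ribosome biogenesis, further starvation and further iron lists were added after the values were seen.

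Named are the 15 largest changes in each direction among calls with 1 gene, groups that do not overlap and a higher group mean of at least 6; up to 6 called members of each list, or the 2 with the highest untreated level where none was called; and the 10 probe sets in each direction that deviate most in cPTIO replicate 3 where replicates 1 and 2 differ by less than 0.5. Further members, and those of symbol families, were named after their values were seen. Deviations of same-numbered cPTIO and SNP arrays correlated at 0.257, 0.305 and 0.417. Each exceeds 0.1, and the numbers were therefore treated as pairing these arrays, on the strength of the data since no label says so. For cPTIO and untreated the correlations were 0.0621, 0.0564 and -0.00711, so those arrays were not paired. Figures were drawn with matplotlib.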

Additional observations from a re-analysis of the deposited data

Results flagged for a closer look

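A pair of control transcripts, which the comparisons above do not use, read higher on all 3 cPTIO arrays than on all 3 untreated arrays. BioC, a bacterial spike-in added at hybridisation, read 6.50, 6.34 and 6.14 untreated and 8.62, 8.71 and 7.77 with cPTIO, a difference of 2.04 on the log2 scale. It averaged 8.53 on the SNP arrays, so that BioC separated the untreated arrays from all treated ones, the same split as in every comparison with untreated seedlings. Plant ubiquitin read 10.98, 11.03 and 10.98 untreated and 11.41, 11.30 and 11.40 with cPTIO, a difference of 0.379. For both, the exact two-sided permutation p was 0.1, the smallest that 3 arrays against 3 allow, and 0.48 after adjustment over 12 control transcripts. The spike-ins BioB, BioD and cre differed by 0.19, 0.12 and 0.07 with overlapping arrays, and in all 3 cPTIO replicate 3 was the lowest of the 6 arrays. The controls dap, thr, phe and lys differed by 0.93, 0.46, 0.44 and 0.20 (exact permutation p from 0.2 to 0.3, adjusted p from 0.48 to 0.6). In each of them cPTIO replicates 1 and 3 lay above all untreated arrays and replicate 2 did not. Differences for trp, actin and GAPDH were 0.04, 0.08 and -0.16 with overlapping arrays. The part of these array differences in the results above was not tested.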

How the results depend on the processing

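The count of calls depended on which arrays shared the fit. For cPTIO against untreated, 1498 probe sets were called with all 9 arrays. The fit of the 6 arrays alone called 280 (75 higher, 205 lower), array weights gave 2260 (904 higher), and leaving out 1 array gave 122 to 2114 (25 to 806 higher, 97 to 1308 lower). Centring, the filter on dim probe sets and the intensity trend gave 1277 to 1525. With a replicate block in a fit of the 6 arrays, limma called 0 probe sets, 0 higher and 0 lower, while 4510 had an unadjusted p under 0.05 and the lowest adjusted p was 0.0858. Same-numbered cPTIO and untreated arrays did not deviate together, so this block takes residual degrees of freedom with no pairing to account for. For cPTIO against SNP, 742 calls became 267 in the fit of 6 arrays, 282 with the replicate block, 1652 with array weights and 161 to 1313 when 1 array was left out, the lowest without SNP replicate 2 and the highest without cPTIO replicate 3. In the fit of the 6 arrays alone, 7 ribosome biogenesis factors and 4 chloroplast genes were called lower and 3 genes of the added starvation list higher. Leaving out 1 array gave 2 to 25, 3 to 24 and 1 to 7 such calls; these list counts, apart from those without cPTIO replicate 3, were chosen after seeing the data. Of the 107 called probe sets followed under the alternatives, 0 changed direction under the settings in which they were tested. Their cPTIO and untreated arrays do not overlap, so apart from centring no setting could reverse a direction. This count of 0 therefore supports nothing by itself. The filter on dim probe sets kept 95 of the 107, and the other settings kept all. The calls lost were 107 under the replicate block, 91 without untreated replicate 2 and 75 in the fit of the 6 arrays, against 4 under array weights and 5 under centring.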
